A study of Homo sapiens with 4 samples.

Results

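NF-kappaB signalling and the cytokines and chemokines it drives were followed in cells that overexpress U1 snRNA. A list of 40 human genes defined the set by symbol, and 37 of them had a row among the 25283 genes of the count table. They comprise 17 pathway components, 15 secreted products and 5 targets that stay on or in the cell. All 37 passed the filter on low counts and were tested. IL1A, IL1B and CSF3 were not analysed here.

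RNA-seq was done on cells labelled neurons that were made from the embryonic stem cell line H1 by way of neural progenitors and a maturation step. The U1_OE group (2 libraries) was given a lentiviral vector that overexpresses U1 snRNA, which pairs with 5′ splice sites as part of a spliceosomal particle, for 36 hours. The control group (2 libraries) is labelled wild type with an empty vector, although its treatment text names the overexpression vector as well, and groups were taken from genotype labels and titles. Both groups share the single parent line, the differentiation and the exposure time. The level of U1 snRNA itself was not analysed here. No label gives separate cultures within a group, so p-values here reflect only how far these 4 libraries vary, which may be technical. Estimated counts summed to 16713505 and 19057423 in U1_OE libraries and to 17061796 and 17636307 in control libraries.

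NF-kappaB factors are dimers of REL-family subunits that inhibitory IkappaB proteins hold in the cytoplasm. Cytokine and pattern receptors activate the IKK kinase complex, which marks IkappaB for destruction and lets the dimers enter the nucleus and bind kappaB sites in DNA. Their targets include their own inhibitors, which end the response, and chemokines that call in leukocytes. Glia, fibroblasts and endothelial cells are known for strong chemokine output through this pathway, and neurons for weaker output. Most of its regulation acts on protein, which RNA levels do not show.

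The cell type label was set against marker genes, in CPM (counts set to a common library size with TMM scaling). All 8 mesenchymal markers listed reached 10 CPM in every library, but only 1 of 10 neuronal markers, TUBB3, did. MAP2, SYT1 and SNAP25 lay between 2.65 and 8.19 CPM. DCX and STMN2, defining genes of young neurons, stayed under 1 CPM in every library, so the data do not bear out the label neuron. Of 10 microglial and blood markers, PTPRC, P2RY12 and ITGAM had no row, CX3CR1, TYROBP, CD14 and SPI1 stayed under 1 CPM, and CD68, a lysosomal protein many cell types make, supplied most of the summed level. These sums were 72.5 and 82.7 CPM in U1_OE libraries and 49.5 and 41.9 CPM in control libraries. For the endothelial list they were 42.3 and 76.9 CPM in U1_OE libraries and 28.3 and 35.1 CPM in control libraries, mostly from PECAM1. CDH5, KDR and VWF, 3 of the 5 endothelial markers, stayed under 1 CPM in every library. PECAM1 and TEK were higher in both U1_OE libraries, CDH5 and KDR were lower in both, and VWF overlapped between groups. The neuronal sums were 284 and 359 CPM in U1_OE libraries and 182 and 120 CPM in control libraries, mostly from TUBB3. The mesenchymal sums were 90440 and 85580 CPM in U1_OE libraries and 77520 and 86860 CPM in control libraries, mostly from COL1A1 and COL1A2. COL1A1, THY1, PDGFRB and VIM were higher in both U1_OE libraries than in both control libraries, and the other mesenchymal markers overlapped between groups. The astrocyte sums were 27.3 and 22.5 CPM in U1_OE libraries and 8.59 and 19.7 CPM in control libraries, mostly from SLC1A3, while GFAP stayed under 2 CPM. The neural progenitor sums were 45.1 and 57.7 CPM in U1_OE libraries and 45.7 and 44.9 CPM in control libraries, mostly from NES. These sums join opposite differences. NES was higher in both U1_OE libraries than in both control libraries, and PAX6, SOX2 and FABP7 were lower in both. The part of these differences in the results that follow was not tested, and in bulk RNA fewer cells of a type cannot be told apart from less RNA per cell.

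The 6 chemokine genes named next share a regulatory sequence as well as a function, and the stretches that carry it are shown here. In 4 of them U1_OE replicate 1 was lowest and control replicate 1 highest, as in 11.1% of all tested genes. CXCL2 and CXCL5 hold the sequence without that order, and a link between sequence and order was not tested. CXCL1, CXCL2, CXCL3, CXCL5, CXCL6 and CXCL8 encode the ELR chemokines that attract neutrophils, and they lie in one cluster on chromosome 4 (GRCh38, from 73740506, the start of CXCL8, to 74099293, the end of CXCL2). The following 60-base stretches of the RefSeq promoters (GRCh38.p14) are written 5′ to 3′ on the strand of the gene. Capitals mark the kappaB match, which in CXCL8 is a shorter word that falls outside the consensus used below.
CXCL1 (chr4:73869289-73869348, plus strand): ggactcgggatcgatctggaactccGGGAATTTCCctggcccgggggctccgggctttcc
CXCL2 (chr4:74099239-74099298, minus strand): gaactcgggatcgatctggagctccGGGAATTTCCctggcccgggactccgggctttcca
CXCL3 (chr4:74038734-74038793, minus strand): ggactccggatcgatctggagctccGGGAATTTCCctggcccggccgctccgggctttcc
CXCL5 (chr4:73998734-73998793, minus strand): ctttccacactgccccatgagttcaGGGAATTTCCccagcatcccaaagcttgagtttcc
CXCL6 (chr4:73836563-73836622, plus strand): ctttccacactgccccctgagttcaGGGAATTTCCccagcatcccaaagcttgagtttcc
CXCL8 (chr4:73740452-73740511, plus strand): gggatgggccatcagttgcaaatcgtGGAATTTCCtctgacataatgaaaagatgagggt
NFKBIA (chr14:35404796-35404855, minus strand): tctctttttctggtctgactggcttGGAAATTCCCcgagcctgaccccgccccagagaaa
IL6 (chr7:22727102-22727161, plus strand): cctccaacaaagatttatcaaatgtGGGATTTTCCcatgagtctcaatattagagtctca

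In these windows the match began between 73 and 91 bases before the start site of the RefSeq promoter. The gene spans given here come from another annotation, GENCODE, whose starts can differ. The CXCL8 window, for example, runs past the GENCODE start of CXCL8 at 73740506. CXCL1 and CXCL3 were identical at 56 of 60 positions and CXCL5 and CXCL6 at 59 of 60, whereas CXCL1 and CXCL5 shared 27. NFKBIA, whose protein is the main inhibitor of the factor, holds the same 10 letters on the opposite strand. The letters GGGAATTTCC, searched on both strands in the 300 bases around each start, were found for 10 of the 33 listed genes that have a RefSeq promoter here (of 40) and in 0.145% of 35116 promoters of all genes. That word was picked as the commonest match among the members, so the contrast is a description. Here and below, members were counted by gene and the background by promoter. A gene with more than a single promoter, such as NFKBIZ, has more chances to match. The 10 were CXCL1, CXCL2, CXCL3, CXCL5, CXCL6, NFKB1, NFKBIA, NFKBIB, NFKBIZ and REL. The 9 letters GGAATTTCC, which lie within that word, added CXCL8 and ICAM1 and occurred in 0.461% of all promoters. The NF-kappaB consensus, which allows other letters within a word of 10, matched 17 of the 33 and 11.3% of all promoters. Those 17 did not include CXCL8 or ICAM1, which hold only the 9 letters. IL11 and TNFAIP6, which were higher in U1_OE, had no match in their windows. Neither had PTGS2, TNFAIP2, IL1R1 and CXCL12, which were lower in both U1_OE libraries. A missing match says only that the letters are not there. CCL2, CSF1, CSF3, IKBKB, LIF, NFKBIE and RELB were not searched.

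The comparison of U1_OE with control asks what the overexpressed RNA does to transcript levels, and here whether pathway components and secreted targets behaved alike. No member passed the test: at an adjusted p of 0.05 over 17317 genes (edgeR, quasi-likelihood, Benjamini-Hochberg), 0 of 37 members and 0% of all genes were called, with 1572 genes at an unadjusted p under 0.05. An unadjusted p under 0.05 was found for 5 members with lower and 2 with higher levels in U1_OE, shares to be read against 4.72% and 4.36% of all tested genes. DESeq2 also called 0 members, against 0.423% of all genes called lower and 0.548% called higher. limma-voom called 0 as well.

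Over all 4 libraries the signs leaned to lower levels in U1_OE, and the medians were lower for both classes of targets than for components. A negative log2 fold change was found for 30 of 37 members, against 50.7% of all tested genes, and a positive one for 7, against 49.3%. Medians were -0.09 over 17 pathway components, -0.44 over 15 secreted products and -0.69 over 5 cell-bound targets, against -0.01 over all tested genes. Both U1_OE libraries lay below both control libraries for 13 of 37 members (22.0% of all genes did so) and above both for 4 (19.7% of all genes). The lean of the secreted products rested on control replicate 1: 12 of 15 were negative over all libraries and 7 of 15 without it, and their median was then 0.23. The cell-bound median was -0.40 without U1_OE replicate 2.

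**Figure D1:**
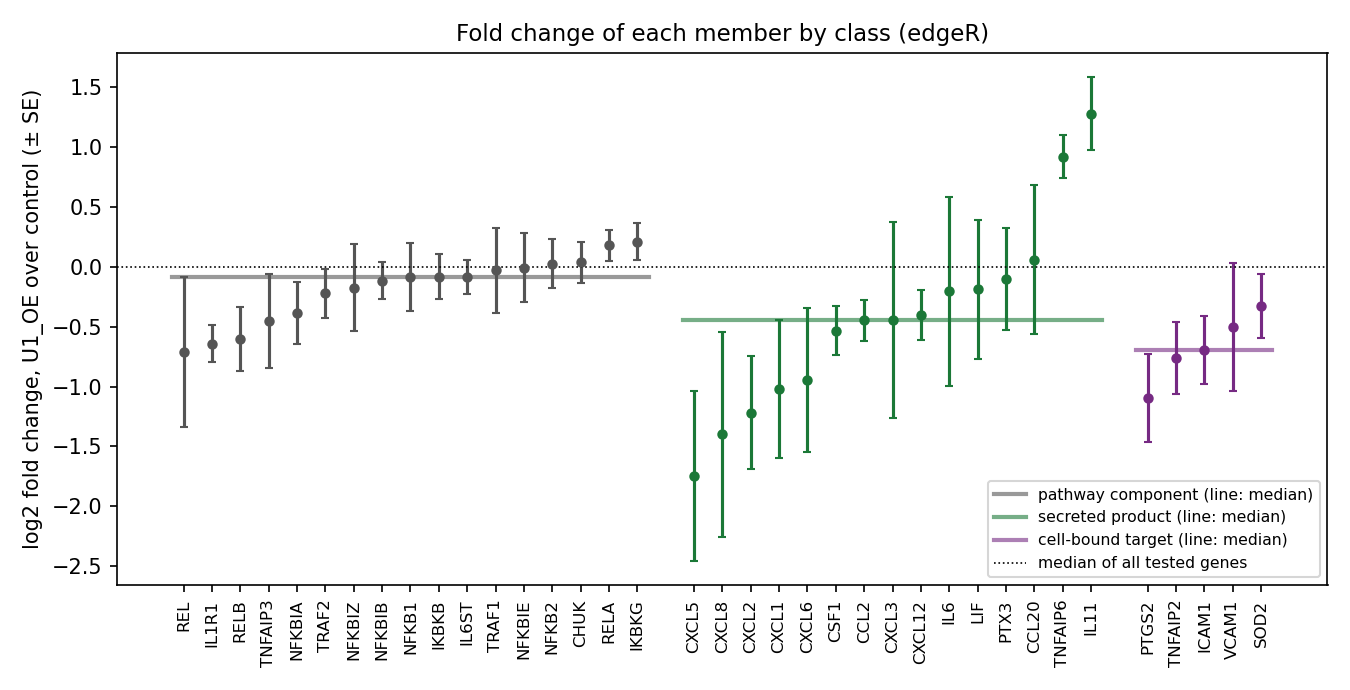
Log2 fold change of U1_OE over control by edgeR for each of the 37 members, with standard errors, ordered within class; the coloured lines are class medians (-0.09, -0.44 and -0.69) and the dotted line is the median of all tested genes (-0.01). Components run from -0.71 (REL) to 0.21 (IKBKG), and the ELR chemokines and the cell-bound targets all sit below 0, several with wide errors.

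Among the REL-family subunits RELA, NFKB1 and NFKB2 had means that were nearly level between groups. RELA, the main activating subunit, had 78.7 and 72.2 CPM in U1_OE libraries against 68.1 and 65.4 CPM in control libraries. NFKB1, the precursor of p50, had 8.93 and 14.7 CPM in U1_OE libraries against 12.6 and 12.55 CPM in control libraries. NFKB2, the precursor of p52 in the noncanonical pathway, had 26.8 and 19.3 CPM in U1_OE libraries against 23.0 and 22.4 CPM in control libraries. U1_OE libraries were thus slightly above control for RELA and on both sides of it for NFKB1 and NFKB2. Log2 fold changes were 0.18 ± 0.13 for RELA, -0.09 ± 0.28 for NFKB1 and 0.02 ± 0.21 for NFKB2 (SE, n = 2 each; edgeR adjusted p = 0.723, 0.955 and 0.987). Without U1_OE replicate 1 the values were 0.24 for NFKB1 and -0.22 for NFKB2.

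The subunit genes RELB and REL had lower levels in both U1_OE libraries. Per kilobase of exon RELB was about as abundant as NFKB1, at means of 1.90 and 1.95 CPM per kilobase. RELB, the partner of p52, had 5.30 and 3.88 CPM in U1_OE libraries against 7.30 and 6.64 CPM in control libraries, a log2 fold change of -0.60 ± 0.27 (edgeR adjusted p = 0.585). REL, a subunit best known from lymphocytes, had 0.739 and 0.577 CPM in U1_OE libraries against 0.942 and 1.22 CPM in control libraries. These REL levels rest on 12 and 11 counts in U1_OE libraries and 16 and 22 counts in control libraries. The log2 fold change of REL was -0.71 ± 0.62 (edgeR adjusted p = 0.768). Without U1_OE replicate 2 RELB was -0.40.

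The 5 genes grouped here as inhibitors or IkappaB-family members had negative log2 fold changes, from -0.46 to -0.01, and none was called. Of all tested genes 50.7% were negative. NFKBIE was 0.0038 with DESeq2, and NFKBIZ was 0.097 without U1_OE replicate 1 and 0.32 without control replicate 1. NFKBIA had 23.9 and 18.5 CPM in U1_OE libraries against 22.2 and 33.3 CPM in control libraries, so the groups overlapped and control replicate 2 stood highest (log2 fold change -0.39 ± 0.26, edgeR adjusted p = 0.700). It was -0.0678 without control replicate 2, -0.22 without U1_OE replicate 2 and -0.63 without control replicate 1. TNFAIP3, the deubiquitinating enzyme A20, NFKBIE and NFKBIZ also overlapped between groups. NFKBIB was lower in both U1_OE libraries, by a log2 fold change of -0.12 ± 0.15, and the gene overlaps SIRT2 on the opposite strand, so its reads are uncertain where no strand-marking step is stated. The IKK genes CHUK, IKBKB and IKBKG, which encode the 2 kinases and the scaffold of the activating complex, lay between -0.09 and 0.21. The adaptor genes TRAF1 and TRAF2 had -0.03 ± 0.35 and -0.22 ± 0.21.

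IL1R1, the signalling receptor for interleukin-1 (chromosome 2, 102064544 to 102179874), had the smallest unadjusted p of the components. It had 30.2 and 30.3 CPM in U1_OE libraries against 42.6 and 52.0 CPM in control libraries. The U1_OE libraries agreed closely and both lay below control. Its log2 fold change was -0.64 ± 0.15 with an unadjusted p of 0.00918 (edgeR adjusted p = 0.459). An antisense gene, IL1R1-AS1, overlaps it. IL6ST, the gp130 chain that the whole interleukin-6 family signals through, was nearly level, at 55.2 and 62.3 CPM in U1_OE libraries against 59.2 and 65.4 CPM in control libraries.

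**Figure D2:**
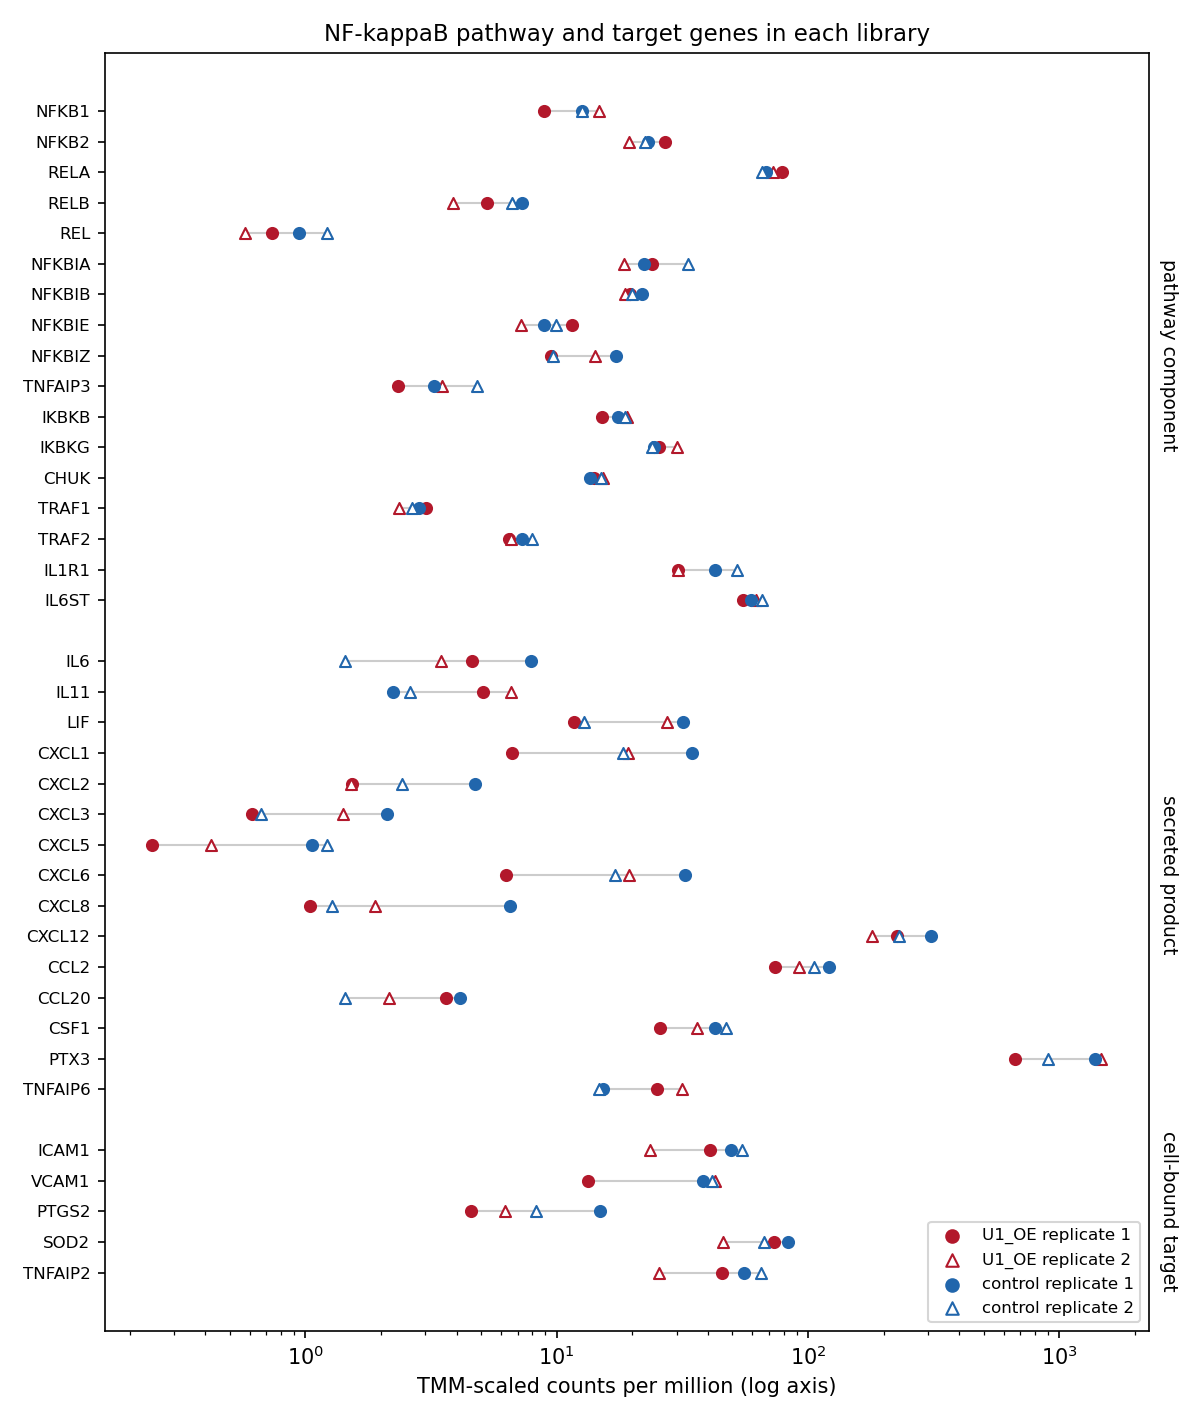
TMM-scaled CPM on a log axis for each of the 37 members in each library, with U1_OE in red and control in blue, circles for replicate 1 and triangles for replicate 2, joined by a line over the range. CXCL1, CXCL6, CXCL8 and LIF run from U1_OE replicate 1 at the low end to control replicate 1 at the high end.

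The ELR chemokine genes had lower means in U1_OE than in control, all 6 of them, with a median log2 fold change of -1.12 and none called. Of all tested genes 50.7% had a negative log2 fold change. CXCL1 had 6.65 and 19.3 CPM in U1_OE libraries against 34.5 and 18.3 CPM in control libraries. CXCL6 had 6.28 and 19.3 CPM in U1_OE libraries against 32.5 and 16.98 CPM in control libraries. CXCL8, which encodes interleukin-8, had 1.05 and 1.89 CPM in U1_OE libraries against 6.53 and 1.27 CPM in control libraries. In each of these genes U1_OE replicate 1 was lowest, control replicate 1 was highest and the replicates numbered 2 lay in between, so the groups overlapped. Log2 fold changes were -1.02 ± 0.58, -0.94 ± 0.60 and -1.40 ± 0.85 (edgeR adjusted p = 0.671, 0.692 and 0.682). Without control replicate 1 they were -0.47, -0.38 and 0.23, and without U1_OE replicate 1 they were -0.44, -0.34 and -1.04. Without U1_OE replicate 2 they were -1.99, -1.98 and -1.89, and without control replicate 2 they were -1.41, -1.34 and -2.14.

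CXCL2 and CXCL5 were the ELR chemokine genes whose groups did not overlap. Both U1_OE libraries lay below both control libraries, as in 22.0% of all tested genes. CXCL2 had 1.54 and 1.52 CPM in U1_OE libraries against 4.71 and 2.43 CPM in control libraries (log2 fold change -1.22 ± 0.47, unadjusted p of 0.0496, edgeR adjusted p = 0.549). Leaving out control replicate 1 gave -0.64. CXCL5 had 0.246 and 0.419 CPM in U1_OE libraries against 1.06 and 1.22 CPM in control libraries, from 4 and 8 counts against 18 and 22 counts. CXCL3 had 0.616 and 1.42 CPM in U1_OE libraries against 2.12 and 0.663 CPM in control libraries. Of the 50-base words in CXCL1 transcripts, 5.73% also occur in CXCL2 transcripts and 0.573% in those of CXCL3, so some reads of these near copies can be shared. CXCL5, CXCL6 and CXCL8 shared no such word with the others.

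For the secreted products the 2 libraries of a group lay further apart than for all genes. Across their 15 genes the median absolute log2 difference was 0.48 between the U1_OE libraries and 0.83 between the control libraries, against 0.30 and 0.22 over all tested genes. For the pathway components it was 0.30 and 0.13. U1_OE replicate 2 and control replicate 2 differed by a median of 0.54 over the secreted products, and U1_OE replicate 1 and control replicate 1 by 1.06. The order with U1_OE replicate 1 lowest and control replicate 1 highest was found in 8 of 37 members, 6 of them secreted, and in 11.1% of all tested genes.

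**Figure D3:**
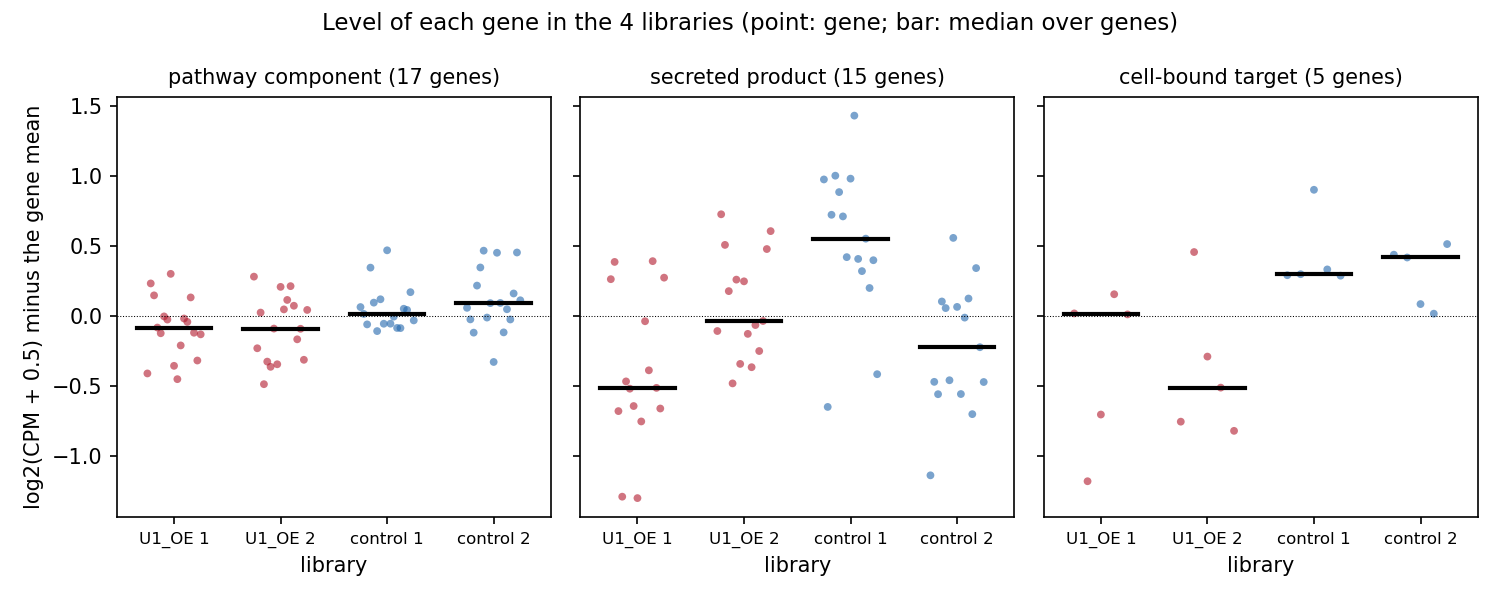
Log2(CPM + 0.5) of each gene minus its mean over the 4 libraries, 1 panel per class, with points for genes and bars for their median; U1_OE is red and control blue. For secreted products the medians were -0.51 and -0.03 in U1_OE libraries and 0.55 and -0.22 in control libraries, so the groups overlap, while the component medians lay between -0.09 and 0.09.

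The chemokines that attract monocytes and progenitor cells were more abundant and less spread. CXCL12, the ligand of CXCR4 and ACKR3, had 225.5 and 179.5 CPM in U1_OE libraries against 307 and 229.6 CPM in control libraries. CCL2, the monocyte chemoattractant, had 73.7 and 92.4 CPM in U1_OE libraries against 120.8 and 105.4 CPM in control libraries. Both genes were lower in each U1_OE library than in either control library, by log2 fold changes of -0.41 ± 0.21 and -0.45 ± 0.17 (unadjusted p of 0.112 and 0.0489, edgeR adjusted p = 0.638 and 0.547). CXCL12 was -0.25 without U1_OE replicate 2 and -0.16 without control replicate 1, and CCL2 was -0.28 without U1_OE replicate 1. CCL20 overlapped between groups, at 2.15 to 3.63 CPM in U1_OE libraries and 1.44 to 4.12 CPM in control libraries. CSF1, the macrophage growth factor, had 25.9 and 36.2 CPM in U1_OE libraries against 42.7 and 47.2 CPM in control libraries. Its log2 fold change was -0.53 ± 0.20 with an unadjusted p of 0.0477 (edgeR adjusted p = 0.547), and without U1_OE replicate 1 it was -0.30.

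IL11 and TNFAIP6 went the other way and had the smallest unadjusted p of the secreted products. IL11 (chromosome 19, 55364389 to 55370463), a cytokine of the interleukin-6 family that fibroblasts make, had 5.11 and 6.61 CPM in U1_OE libraries against 2.24 and 2.60 CPM in control libraries. TNFAIP6 (chromosome 2, 151357592 to 151380048), which encodes the hyaluronan-binding protein TSG-6, had 25 and 31.6 CPM in U1_OE libraries against 15.3 and 14.7 CPM in control libraries. In both genes each U1_OE library lay above each control library. Log2 fold changes were 1.27 ± 0.31 and 0.92 ± 0.18 (unadjusted p of 0.00909 and 0.00406, edgeR adjusted p = 0.459 for both), and they stayed between 1.07 and 1.46 and between 0.73 and 1.09 with any library left out. DESeq2 did not call them either (adjusted p of 0.525 and 0.119).

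Other members of the interleukin-6 family overlapped between groups. IL6, the acute-phase cytokine, had 4.62 and 3.46 CPM in U1_OE libraries against 7.89 and 1.44 CPM in control libraries, with the control libraries at both ends. Its log2 fold change was -0.21 ± 0.79 (edgeR adjusted p = 0.964), and 1.51 without control replicate 1. LIF had 11.8 and 27.4 CPM in U1_OE libraries against 31.9 and 12.8 CPM in control libraries. PTX3, a secreted pattern-recognition protein, had 666 and 1467 CPM in U1_OE libraries against 1388 and 902 CPM in control libraries. Per kilobase of exon, PTX3 was the most abundant member at a mean of 570 CPM per kilobase, ahead of CCL2 at 49.4 and CXCL12 at 38.8, and REL was lowest at 0.0660.

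The 5 cell-bound targets all had negative log2 fold changes, as did 50.7% of all tested genes. PTGS2, the inducible cyclooxygenase that makes prostaglandins (chromosome 1, 186671791 to 186680427), had 4.56 and 6.24 CPM in U1_OE libraries against 14.9 and 8.24 CPM in control libraries. ICAM1, an adhesion molecule for leukocytes, had 40.6 and 23.5 CPM in U1_OE libraries against 49.2 and 54.5 CPM in control libraries. TNFAIP2, an intracellular protein induced by tumour necrosis factor, had 45.6 and 25.4 CPM in U1_OE libraries against 55.4 and 64.9 CPM in control libraries. For these 3 genes each U1_OE library lay below each control library, as for 22.0% of all tested genes. For PTGS2 the lowest was U1_OE replicate 1, but for ICAM1 and TNFAIP2 it was U1_OE replicate 2. Log2 fold changes were -1.10 ± 0.37, -0.69 ± 0.28 and -0.76 ± 0.30 (unadjusted p of 0.0314, 0.0580 and 0.0548, edgeR adjusted p = 0.512, 0.561 and 0.555). Without control replicate 1 PTGS2 was -0.59, and without U1_OE replicate 2 ICAM1 was -0.36 and TNFAIP2 -0.40. VCAM1, an endothelial and stromal adhesion molecule, had 13.4 and 42.6 CPM in U1_OE libraries against 38.1 and 41.5 CPM in control libraries, so 1 library set its difference. SOD2, the mitochondrial superoxide dismutase, overlapped between groups, and the annotation holds a second gene of that name and WTAP in the same place.

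Beyond the set, 78 further genes of the pathway were listed, of which 66 had a row and 57 were tested. edgeR called 0 of them, 5 had an unadjusted p under 0.05 with lower levels (4.72% of all tested genes) and 2 with higher levels (4.36% of all tested genes), and their median log2 fold change was -0.04. The 19 tested kinases and ubiquitin enzymes had a median of -0.04, the 18 receptors and adaptors 0.06, and the 14 other target genes -0.59. ACKR3, the scavenging receptor for CXCL12, had 17.6 and 22.1 CPM in U1_OE libraries against 48.4 and 48.7 CPM in control libraries (log2 fold change -1.29 ± 0.16, edgeR adjusted p = 0.459). OSMR, a gp130 partner that binds oncostatin M, had 116.5 and 117.8 CPM in U1_OE libraries against 59.8 and 71.1 CPM in control libraries (0.84 ± 0.15, edgeR adjusted p = 0.459). Each group of these genes was tight and the groups lay well apart. DESeq2 called both, with ACKR3 lower (adjusted p of 0.000407) and OSMR higher (adjusted p of 0.00348). The ACKR3 call was kept without U1_OE replicate 2 but lost without U1_OE replicate 1 or either control library (adjusted p of 0.0872 to 0.381), and the OSMR call was lost without any of the 4 libraries (adjusted p of 0.0988 to 1.00). In these DESeq2 fits the log2 fold change stayed between -1.46 and -1.11 for ACKR3 and between 0.74 and 0.98 for OSMR. OSMR overlaps RICTOR on the opposite strand, so its reads are uncertain.

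The remaining genes named from this list were IL32, SAA1, TNIP1 and IL1RAP. IL32, a secreted protein that induces other cytokines, had 10.2 and 7.29 CPM in U1_OE libraries against 21.4 and 17.7 CPM in control libraries (log2 fold change -1.16 ± 0.24, edgeR adjusted p = 0.459), and a U1 pseudogene overlaps it on the same strand. TNIP1, a partner of A20, had 33.0 and 38.9 CPM in U1_OE libraries against 53.1 and 46.3 CPM in control libraries. IL1RAP, the co-receptor of IL1R1, was higher, at 21.7 and 15.6 CPM in U1_OE libraries against 12.6 and 9.07 CPM in control libraries, a log2 fold change of 0.78 ± 0.27 opposite in sign to that of IL1R1. SAA1, an acute-phase protein with near-identical copies, had 0 counts in both U1_OE libraries against 120 and 12 counts in control libraries, so U1_OE libraries were at least 22.6-fold lower than the control mean against a floor of 3 counts per library. That mean came mostly from control replicate 1, DESeq2 called the gene (adjusted p of 0.00348), and without U1_OE replicate 1 the call was lost (adjusted p of 0.0529). Without control replicate 1 DESeq2 gave no adjusted p for SAA1.

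**Figure D4:**
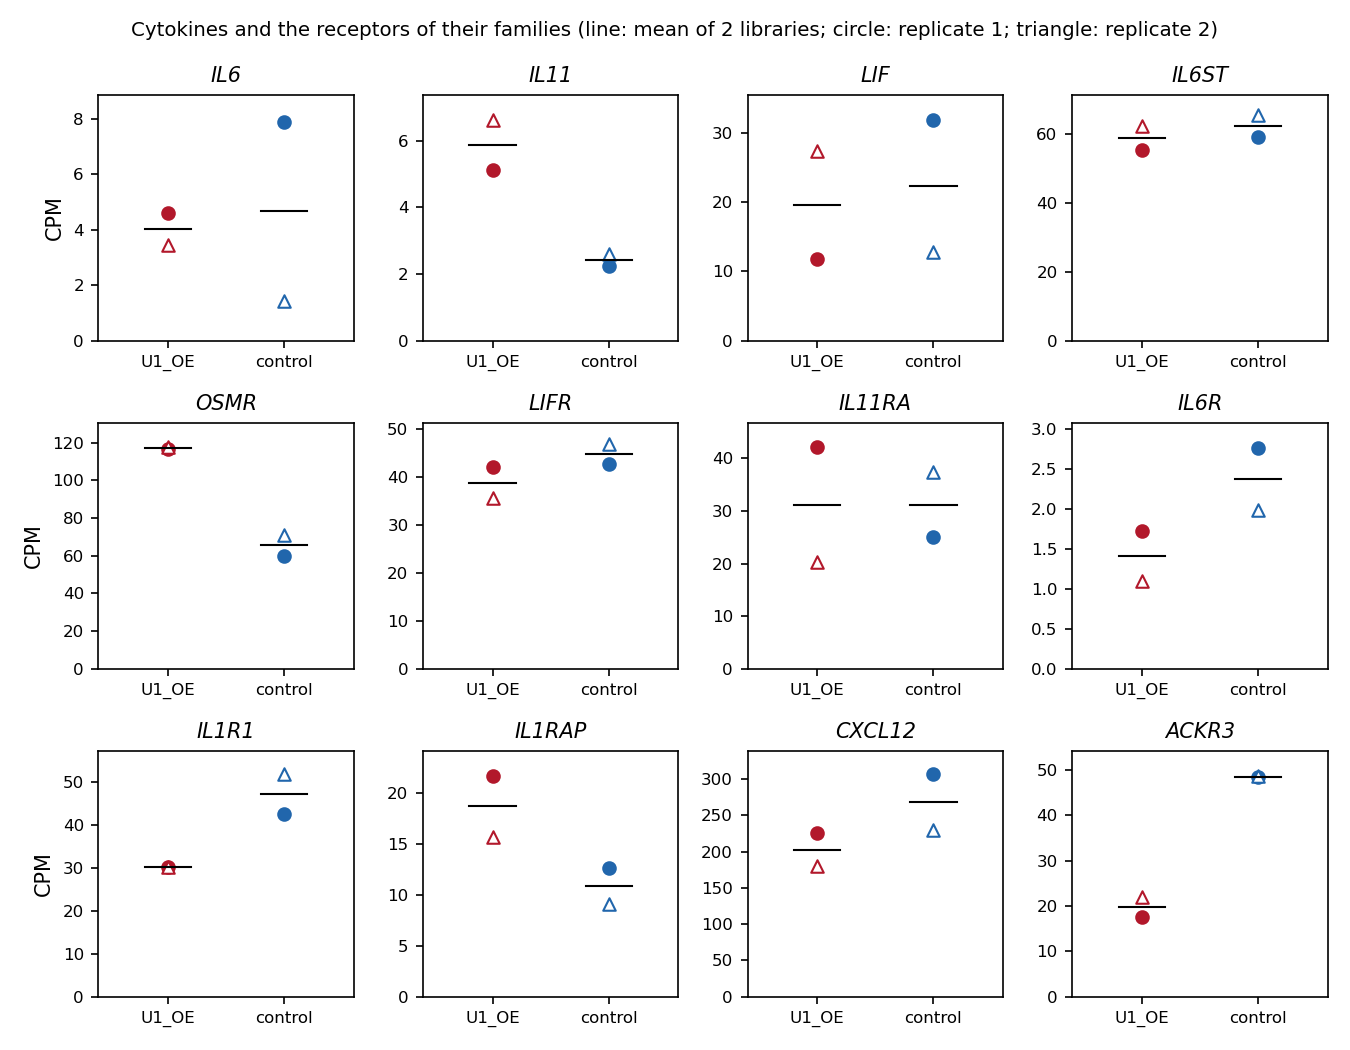
CPM in each library for cytokine genes and receptor genes of the same families, with U1_OE left of control in each panel, circles for replicate 1, triangles for replicate 2 and a line at the mean of 2 libraries; each axis starts at 0. OSMR (116.5 and 117.8 CPM in U1_OE) and ACKR3 (17.6 and 22.1 CPM in U1_OE) lie apart from control, IL6ST and LIFR lie close to it, and IL6 and LIF overlap it.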

How the data were processed

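Estimated counts were deposited by the authors for each gene in 4 libraries, not normalised, and 1.99% of the values above 0 lie within 0.01 of a whole number. Per the submitters' processing notes, Trim Galore, STAR, featureCounts and DESeq2 were used with hg38. The origin of the fractions is unknown here, and if reads were divided between genes, values of paralogs depend on that division. The labels' protocols name no strand-marking step, so overlapping genes on opposite strands are uncertain.

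Values were rounded to whole numbers, and edgeR 4.0.16 under R 4.3.3 gave the main test (filterByExpr, TMM, quasi-likelihood test, two-sided, Benjamini-Hochberg over 17317 genes, threshold 0.05, common dispersion 0.0869). CPM are TMM-scaled. Standard errors are derived from edgeR's fold change and F statistic. Alternatives were a replicate block, leaving out each library, DESeq2 1.42.0, limma-voom (limma 3.58.1), RLE scaling, scaling by library size only, omitting the filter, and keeping genes averaging 50 counts or more. A group left with 1 library was taken to vary as the other group does. The procedures were tested on simulated data. Groups came from titles and genotype labels, and the libraries of a group differed by more than sampling noise.

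Members and lists were chosen with earlier results of these data known. Values are given in full for the 16 members with the smallest unadjusted p and a mean of at least 1 CPM and for 9 genes listed by name, and from the further pathway list for the 6 with the smallest p. CCL20, CXCL3, CXCL5, IL6ST, LIF, PTX3 and VCAM1 fall outside that rule and were chosen after their values were seen. Gene spans and exon lengths come from GENCODE v29 (GRCh38). With totals of 16713505 to 19057423 counts and 2 libraries a group, both depth and the number of libraries limit the precision. Counting floors cover counting error only.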

Additional observations from a re-analysis of the deposited data

How the results depend on the processing

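edgeR called 0 genes and 0 members under every scaling, filter and block tried and with each library left out. limma-voom, run on all 4 libraries, called 0 genes and 0 members. DESeq2 called 179 genes and 0 members. Members at an unadjusted p under 0.05 numbered 7, against 4 with RLE size factors, 4 with the replicate block and 4 to 9 with a library left out. Among all 17317 tested genes 1572 had such a p, against 1568 with RLE size factors and 1072 with the replicate block. The number among all genes also changed with a library left out, so the range of 4 to 9 cannot be read as particular to the members. With a library left out, the median log2 fold change ranged from -0.48 to -0.13 over members, from -0.22 to -0.0619 over pathway components and from -0.80 to 0.23 over secreted products, of which 7 to 13 of 15 were negative. Over cell-bound targets it ranged from -0.88 to -0.40. The cause was not tested.

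NFKB2 was -0.0146 with library size alone and -0.0038 with limma-voom, NFKBIE was 0.0016 with RLE size factors and 0.0038 with DESeq2, and IL6 was 0.26 with limma-voom and 0.19 with the replicate block. With a library left out, 15 of 37 members changed sign in at least 1 fit and 22 kept it. The sign could hardly change for the 13 lower and 4 higher members whose groups did not overlap. Sign changes over all tested genes are not given here. For those 15, log2 fold changes ranged from -0.50 to 0.24 for NFKB1, -0.22 to 0.24 for NFKB2, -0.37 to 0.29 for NFKBIE, -0.53 to 0.32 for NFKBIZ, -0.27 to 0.0837 for IKBKB, -0.029 to 0.11 for CHUK, -0.20 to 0.14 for TRAF1 and -0.18 to 0.0138 for IL6ST. They ranged from -0.97 to 1.51 for IL6, -0.93 to 0.63 for LIF, -1.17 to 0.63 for CXCL3, -2.14 to 0.23 for CXCL8, -0.51 to 1.02 for CCL20, -0.79 to 0.37 for PTX3 and -1.58 to 0.11 for VCAM1. The cause was not tested.

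No link between same-numbered libraries is known here beyond the number. Their deviations from the group means correlated at -0.0377 over 17317 genes and at -0.248 over the 37 members. These values cannot show whether such libraries were handled together. The replicate block called 0 genes. The counts of signs and unadjusted p, the cell-bound medians and the DESeq2 fits with a library left out were added after the data were seen.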
